A study of Mus musculus with 12 samples.

Results

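The 10 genes described here are grouped under the name of transcription regulators of lipogenesis: Srebf1, Mlxipl, Nr1h3, Thrsp, Mid1ip1, Insig1, Insig2, Scap, Mlx and Usf1. They were taken by name from a list, and each name was matched to its Ensembl identifier in the GENCODE annotation of mm10. The count table holds 46078 genes, and all 10 were found in it. All 10 were also among the 13054 genes that had enough reads to be tested.

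The liver makes fatty acids from sugar when insulin and glucose are high, and this is set largely by transcription. SREBP-1, encoded by Srebf1, is held in the endoplasmic reticulum by Scap and the Insig proteins until it is released to activate genes of fatty acid synthesis, while ChREBP (Mlxipl) with its partner Mlx responds to sugar metabolites. LXR alpha (Nr1h3) and USF1 act on the promoters of Srebf1 and of lipogenic enzymes, and Thrsp and Mid1ip1 encode related small proteins that promote fatty acid synthesis.

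Male mice, C57BL/6J in the study's methods and C57BL/6 in the labels, were given a diet with 60% of its energy from fat from 5 weeks of age, and became obese. At surgery they had a vertical sleeve gastrectomy (VSG), in which most of the stomach is removed, or a sham operation. Sham-operated mice then either ate without restriction (Sham-Ad lib) or were given less food so that their weight followed that of the VSG mice (Sham-WM). Livers were taken on day 16 after surgery, after 5 h without food, and the poly(A) RNA of 4 mice from each group was sequenced. The labels give an age of 21 weeks for each of the 12 mice, with no genetic change in any group.

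Libraries are named by the animal number, in the order 3F, 4F, 6F and 10F for Sham-Ad lib, 2F, 9F, 15F and 16F for Sham-WM, and 1F, 8F, 11F and 18F for VSG. This order holds wherever 4 values of a group are given. Total counts were 17638524, 18105085, 18297907 and 16859076 in the Sham-Ad lib libraries. They were 18947655, 19384076, 18919834 and 17683302 in Sham-WM and 16608496, 19055615, 15122520 and 17520040 in VSG. A count of 3 in the smallest library is far below the level of each of the 10 genes, so depth did not limit their detection.

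VSG library 11F stood apart from the others in several measures. It had the lowest total and the lowest TMM scaling factor, 0.879, against 0.946 to 1.04 in the 11 other libraries. Its rank correlations with the VSG libraries 1F, 8F and 18F were 0.966, 0.963 and 0.966, and no other pair of replicates in any group had a value that low. Albumin took 4.89% of its counts, and between 5.39% and 12.2% in the others. For the 10 regulators, calls and signs that change without 11F, and fold changes that move by over 1.5 times, are given with and without it. Library names also hold a number after the letter S, whose meaning was not established here. These numbers ran in separate blocks for the 3 groups. An effect of any batch that went with these blocks cannot be told apart from that of surgery or diet.

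Levels are given as CPM, the count scaled to a common library size by TMM factors, as mean ± SD with n = 4 per group. Differences are log2 fold changes of edgeR's quasi-likelihood test with their standard error (SE). A gene is said to be called when its p, adjusted by the Benjamini-Hochberg method over the 13054 genes tested, was under 0.05. The comparison of VSG with Sham-WM asks whether surgery and food restriction differed at matched weight, and those with Sham-Ad lib ask what each did to obese mice eating freely. The comparisons share libraries: the Sham-Ad lib, Sham-WM and VSG groups each enter 2 of the 3.

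By calls in edgeR's fit of the 12 libraries, the regulators differed most between the 2 groups of matched weight. The same order held over all genes tested (26.9% called there, 6.99% between Sham-WM and Sham-Ad lib and 0.751% between VSG and Sham-Ad lib). With 2 RUVs factors or at an unadjusted p, more regulators were called between Sham-WM and Sham-Ad lib. When 10F or 16F was left out, more regulators were also without overlap between these sham groups. In VSG compared with Sham-WM mice, 6 of the 10 were lower (Srebf1, Thrsp, Mid1ip1, Insig1, Insig2 and Mlx) and 1 was higher (Usf1), while 11.9% of the genes tested were called lower and 15.0% higher. With 2 RUVs factors 3 of the 10 were called (Thrsp, Mid1ip1 and Insig1), beside 3.97% of all genes. The median log2 fold change of the 10 was -0.63, against 0.03 over all tested genes. For 5 of them every VSG library lay below every Sham-WM library (Srebf1, Thrsp, Mid1ip1, Insig1 and Insig2), and for Usf1 every VSG library lay above. Such a separation was seen for 11.9% of the genes tested in the lower direction and 14.3% in the higher. That of Usf1 was lost when 11F, 8F or 10F was left out, and without 11F the groups of 7 regulators separated in the lower direction, Mlxipl and Mlx being added, and 0 in the higher. The shares of all genes without 11F were 14.7% lower and 17.3% higher.

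In Sham-WM compared with Sham-Ad lib mice, 3 of the 10 were higher (Insig2, Mid1ip1 and Mlx) and edgeR called 0 lower, while 3.53% of the genes tested were called higher and 3.45% lower. At an unadjusted p under 0.05, 8 of the 10 passed, beside 21.6% of all genes, and DESeq2 called 4, beside 11.1%. The 3 became 1 without 3F, 4F, 6F, 2F or 15F, beside 3.36% to 5.02% of all genes, and 5 without 11F, beside 9.89%. They also became 5 in a fit of the 2 groups (11.1%), with 2 RUVs factors (13.2%) and with 2 RUVr factors (16.8%). The median log2 fold change was 0.46, against 0.00 over all genes tested. Groups did not overlap for Thrsp, Insig2 and Mlx, which were higher in Sham-WM, and for Scap, which was lower. For all genes tested the shares were 9.17% higher and 8.40% lower. Without Sham-Ad lib 10F the number of regulators without overlap was 7, beside 21.4% of all genes in either direction, and without Sham-WM 16F it was 8, beside 20.2%.

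Between VSG and Sham-Ad lib, edgeR called 0 of the 10 in either direction, while 0.467% of the genes tested were called higher and 0.283% lower. At an unadjusted p under 0.05, 5 of the 10 passed (Srebf1, Nr1h3, Insig1, Scap and Usf1), beside 24.1% of all genes, and DESeq2 called 1, Insig1, beside 9.21%. The median log2 fold change was -0.32, against 0.03 over all genes tested. Groups did not overlap for Nr1h3, which was higher after VSG, and for Mid1ip1, which was lower. Over all genes tested these shares were 4.87% and 4.34%. Without Sham-Ad lib 10F, the groups of 4 regulators did not overlap, since those of Usf1 and Insig2 then separated too, beside 16.6% of all genes in either direction. Without 11F the number was 3, Thrsp being added, beside 13.3%.

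The count of all genes called between VSG and Sham-Ad lib, 98, moved with single libraries. With 6F, 2F, 9F or 1F left out it was 0. It was 1 when 3F, 10F or 16F was left out, 3 for 15F, 69 for 11F, 227 for 8F, 903 for 4F and 1089 for 18F. For Sham-WM compared with Sham-Ad lib it was 912, and fell to 543 when 3F was left out, 554 for 6F, 506 for 10F, 445 for 15F and 424 for 16F. For VSG compared with Sham-WM it was 3509, and 2234 without 15F and 2196 without 16F.

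**Figure D1:**
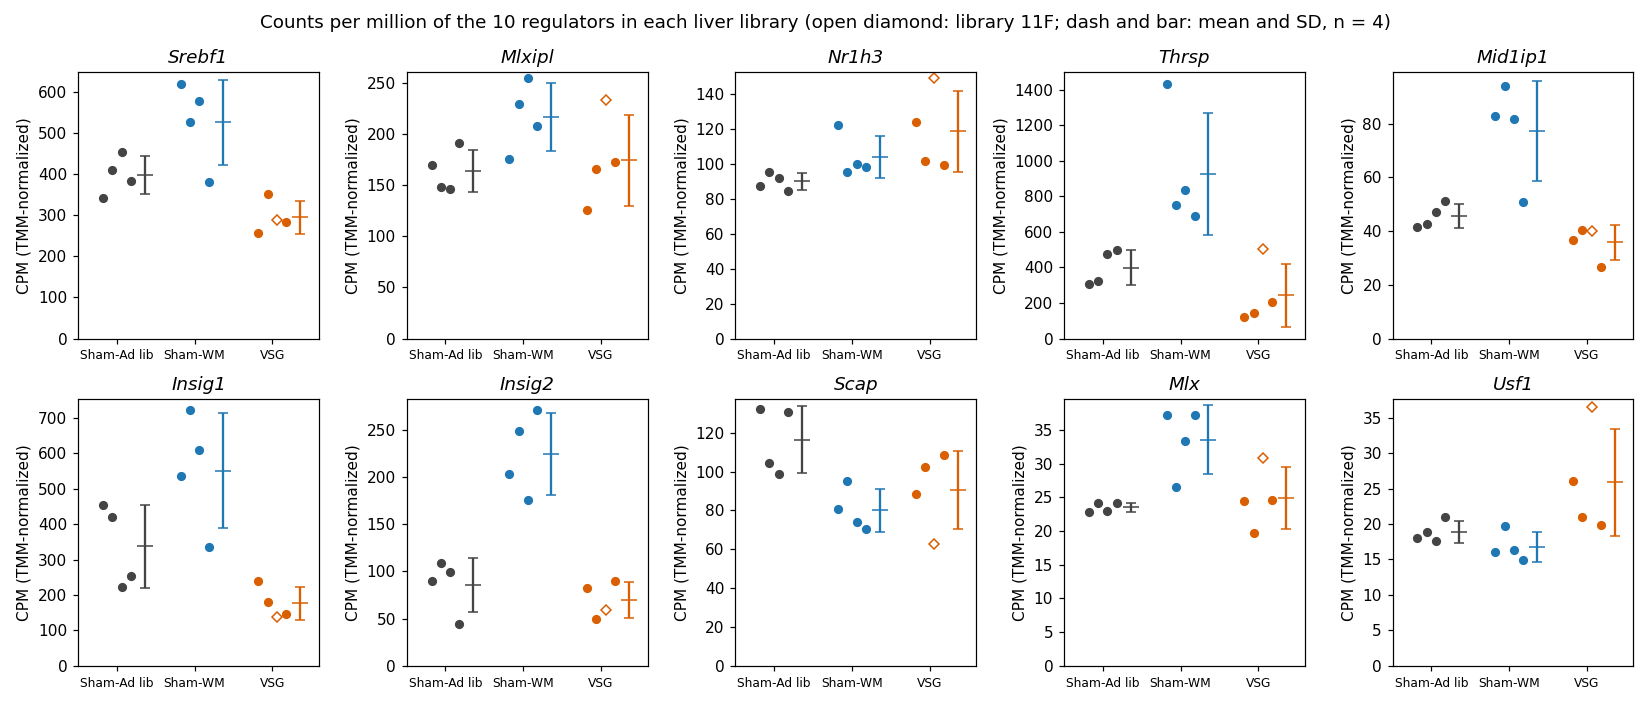
CPM of each of the 10 regulators in every library, with points for the 4 libraries of each group (open diamond for 11F) and a dash and bar for mean ± SD. Insig2 in the 4 Sham-WM libraries lay between 175 and 271 CPM, above every library of the other groups.

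**Figure D2:**
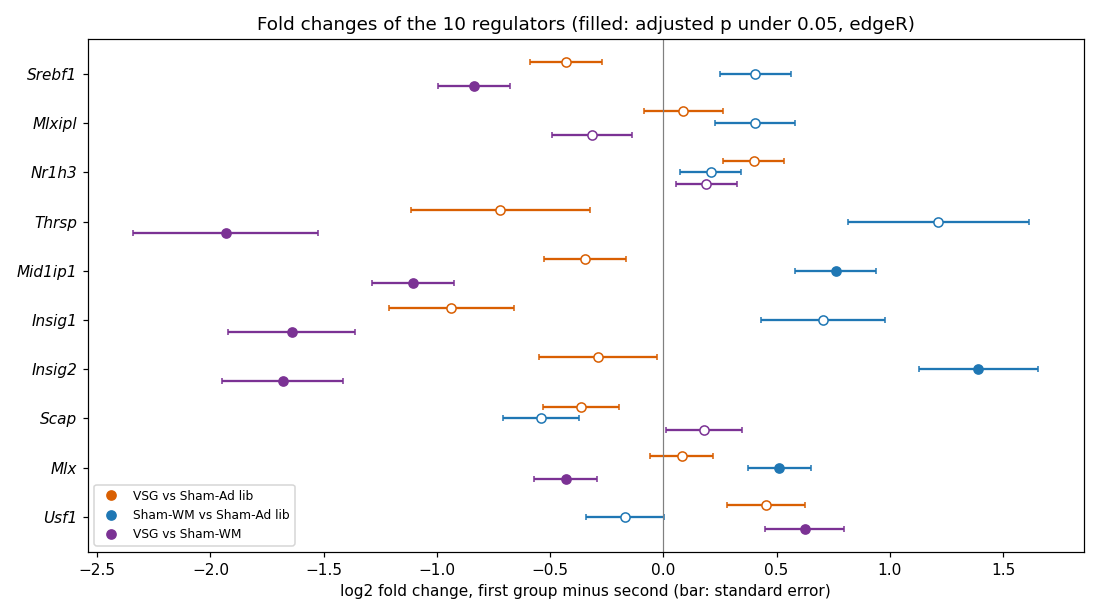
Log2 fold change of each regulator with a bar of 1 SE to each side in the 3 comparisons, from edgeR's fit of the 12 libraries, filled where called. In VSG compared with Sham-WM the values ran from -1.93 for Thrsp to 0.62 for Usf1.

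The plot of CPM by library and the plot of fold changes show the same values as the sentences that follow. Of the 7 regulators that were called between VSG and Sham-WM, the 250 bases before the RefSeq start that lies farthest upstream are shown for Srebf1, Insig2, Mlx and Usf1, since these are genes that differed and factors such as USF1 are known to bind near starts. The regions of Thrsp, Mid1ip1 and Insig1 are not shown, since they reach into the gene as GENCODE gives it, that of Mid1ip1 wholly, and that of Mlx reaches in by a few bases. The sequences come from RefSeq promoters on GRCm38.p6, which has the coordinates of mm10, and 10 of the 10 regulators were matched, with 18 starts. Each runs from 5′ to 3′ on the strand of the gene. Capitals mark 3 motifs, searched on both strands: CACGTG, an E-box that USF1 and related proteins can bind, TCACNCCAC, a sterol element, and CCAAT, the NF-Y box. No match shared a base with another. The regions were chr11:60222582-60222831 (minus strand) for Srebf1, chr1:121332590-121332839 (minus) for Insig2, chr11:101087040-101087289 (plus) for Mlx and chr1:171411063-171411312 (plus) for Usf1.
Srebf1: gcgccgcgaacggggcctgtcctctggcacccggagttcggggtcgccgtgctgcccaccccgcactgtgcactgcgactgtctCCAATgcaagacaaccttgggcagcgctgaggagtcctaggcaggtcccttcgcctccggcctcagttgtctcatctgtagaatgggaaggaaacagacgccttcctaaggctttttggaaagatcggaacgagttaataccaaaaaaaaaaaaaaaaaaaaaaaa
Insig2: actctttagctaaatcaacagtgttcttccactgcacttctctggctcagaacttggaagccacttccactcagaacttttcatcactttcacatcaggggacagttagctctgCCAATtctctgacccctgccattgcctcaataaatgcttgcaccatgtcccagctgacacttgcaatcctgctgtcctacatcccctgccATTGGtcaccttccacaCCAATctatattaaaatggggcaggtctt
Mlx: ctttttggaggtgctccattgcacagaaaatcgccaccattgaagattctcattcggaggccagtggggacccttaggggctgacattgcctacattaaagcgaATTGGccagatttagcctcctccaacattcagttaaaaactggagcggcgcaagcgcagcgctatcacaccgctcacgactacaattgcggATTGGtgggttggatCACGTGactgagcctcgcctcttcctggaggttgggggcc
Usf1: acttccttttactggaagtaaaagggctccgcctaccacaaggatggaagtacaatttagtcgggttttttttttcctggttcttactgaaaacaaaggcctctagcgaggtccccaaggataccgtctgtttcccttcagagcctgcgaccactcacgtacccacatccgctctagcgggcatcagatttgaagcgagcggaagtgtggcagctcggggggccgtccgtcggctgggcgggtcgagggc

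Of the 18 starts, 4 had an E-box within the 250 bases, 1 a sterol element and 7 a CCAAT box. Over the 32851 promoters of the table, 6.02%, 1.05% and 33.8% held these motifs. Insig2 had CCAAT boxes at 136, 46 and 29 bases before its start, Srebf1 at 166 bases, and Mlx an E-box at 40 bases and CCAAT boxes at 146 and 55 bases. Usf1 had none of the 3 motifs in the region shown. Among the starts not shown, Insig1 had an E-box at 101 and a CCAAT box at 216 bases, Thrsp had CCAAT boxes at 79 and 52 bases and Mid1ip1 had none of the 3. CCAAT boxes were also at 30 bases before the start of Srebf1 that lies farthest downstream and at 173 bases before the upstream start of Mlxipl. The sterol element was at 136 bases before the downstream start of Mlxipl, and E-boxes were at 98 bases before its upstream start and at 40 bases before a start of Scap. A match is a description of the letters only. Srebf1, Insig2 and Usf1 have further starts downstream of the one shown, and which start was used in these livers was not tested.

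Srebf1 (ENSMUSG00000020538, chromosome 11, 60199089 to 60222581) gives rise to SREBP-1a and SREBP-1c, which a count per gene cannot separate. It stood at 342, 411, 453 and 384 CPM in Sham-Ad lib, at 619, 528, 579 and 382 CPM in Sham-WM and at 256, 351, 289 and 285 CPM in VSG. Every VSG library lay below every Sham-WM library, of which 16F was the lowest, and both groups overlapped Sham-Ad lib. Srebf1 was lower in VSG than in Sham-WM, at 295 ± 39.9 against 527 ± 103.8 CPM (log2 fold change -0.84, SE 0.16, adjusted p = 0.00314). Compared with Sham-Ad lib (397.5 ± 46.7 CPM), the log2 fold change was -0.43 in VSG (SE 0.16, adjusted p = 0.130) and 0.41 in Sham-WM (SE 0.16, adjusted p = 0.149). With 2 RUVs factors of unwanted variation in the fit, the log2 fold change between VSG and Sham-WM was -0.89 and was not called (adjusted p = 0.0645). Some exon bases of Srebf1 are shared with Rai1, on the opposite strand.

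Insig1 (ENSMUSG00000045294, chromosome 5, 28071363 to 28078662), an anchor of the SREBP and Scap complex that is itself an SREBP target, had 454, 421, 223 and 253 CPM in Sham-Ad lib. It had 534, 723, 609 and 336 CPM in Sham-WM and 239, 181.5, 139 and 146 CPM in VSG. The 4 VSG libraries lay below all of Sham-WM, and 1F reached into the range of Sham-Ad lib, where 3F and 4F were high and 6F and 10F low. The gene was lower in VSG than in Sham-WM, with 176.5 ± 45.9 against 551 ± 162.9 CPM (log2 fold change -1.64, SE 0.28, adjusted p = 0.00198). Against Sham-Ad lib (338 ± 116.8 CPM) it had a log2 fold change of -0.94 after VSG (SE 0.28, adjusted p = 0.0814). The DESeq2 Wald test gave -0.95 for this difference with an adjusted p of 0.0147, and the range of adjusted p over 20 other fits with the same grouping was 0.0147 to 0.374. In Sham-WM compared with Sham-Ad lib the log2 fold change was 0.71 (SE 0.27, adjusted p = 0.149).

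Insig2 (ENSMUSG00000003721, chromosome 1, 121304353 to 121332589) encodes the second Insig anchor, and its liver transcript is known to be raised by fasting and lowered by insulin. Its levels were 89.9, 108.6, 99.7 and 43.9 CPM in Sham-Ad lib, 203, 249, 175 and 271 CPM in Sham-WM and 81.8, 49.1, 59.3 and 89.8 CPM in VSG. Sham-WM stood above every library of both other groups, which overlapped each other, and 10F was the lowest of the 12. Insig2 rose with food restriction from 85.5 ± 28.8 to 224 ± 43.2 CPM (log2 fold change 1.39, SE 0.26, adjusted p = 0.00792), and without any 1 library the adjusted p was between 0.00781 and 0.0303. VSG mice had 69.99 ± 19.0 CPM, less than Sham-WM (log2 fold change -1.68, SE 0.27, adjusted p = 0.00139), and -0.29 on the log2 scale from Sham-Ad lib (SE 0.26, adjusted p = 0.512). Leaving out 10F made the latter -0.53, 4F -0.16, 8F -0.18 and 18F -0.43, and it was not called in these fits (adjusted p from 0.168 to 0.756). With 2 RUVs factors the log2 fold change of VSG compared with Sham-WM was -1.42 (adjusted p = 0.0656). Insig2 is transcribed from several starts, whose transcripts a count per gene does not separate.

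Ratios between genes were taken in each library from RPKM, the CPM divided by the length of merged exon in kilobases (n = 4 per group). Relative to Insig1, the RPKM of Insig2 was 0.2398 ± 0.1106 for Sham-Ad lib, 0.405 ± 0.212 for Sham-WM and 0.368 ± 0.133 for VSG. The ranges of this ratio overlapped between the groups, from 0.154 to 0.399, from 0.256 to 0.718 and from 0.241 to 0.548. The ratio of Insig1 to Srebf1 was 1.60 ± 0.682, 1.90 ± 0.428 and 1.11 ± 0.394 in the same order, and that of Srebf1 to Srebf2, the gene of SREBP-2, was 9.62 ± 3.19, 10.9 ± 2.83 and 9.63 ± 3.61. These ratios also overlapped between groups and were not tested.

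Scap (ENSMUSG00000032485, chromosome 9, 110333288 to 110384950), the escort of SREBP to the Golgi apparatus, ran from 99.0 to 132 CPM in Sham-Ad lib, from 70.2 to 95.4 CPM in Sham-WM and from 62.9 to 108.4 CPM in VSG. Sham-WM lay below Sham-Ad lib without overlap, while VSG overlapped both, with 11F lowest. Means were 116.5 ± 17.3, 80.1 ± 11.1 and 90.5 ± 20.2 CPM. The log2 fold change in Sham-WM compared with Sham-Ad lib was -0.54 (SE 0.17, adjusted p = 0.0720), and without 11F it was -0.56 and called (adjusted p = 0.0190). It was called as well by DESeq2 (0.0336), in a fit of the 2 groups (0.0265) and with 2 RUVs (0.0313) or RUVr (0.0293) factors. In VSG it was -0.36 against Sham-Ad lib (SE 0.17, adjusted p = 0.206) and 0.18 against Sham-WM (SE 0.17, adjusted p = 0.452). Without 11F these were -0.24 (adjusted p = 0.359) and 0.32 (adjusted p = 0.117). Leaving out 9F made the latter 0.27, 16F 0.11, 8F 0.10 and 18F 0.08.

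Mlxipl (ENSMUSG00000005373, chromosome 5, 135089890 to 135138382) encodes ChREBP, whose alpha and beta forms share the gene's count. It ranged from 146 to 191 CPM in Sham-Ad lib, from 175 to 254 CPM in Sham-WM and from 125.5 to 233 CPM in VSG, and the 3 groups overlapped. Within VSG, 11F was the highest. The mean was 164 ± 20.9 CPM in Sham-Ad lib, 217 ± 33.5 CPM in Sham-WM and 174 ± 44.6 CPM after VSG. No comparison was called by edgeR in the fit of the 12 libraries. The log2 fold change was 0.40 in Sham-WM compared with Sham-Ad lib (SE 0.18, adjusted p = 0.201), where the unadjusted p was 0.0382 and DESeq2 did not call the gene, and -0.32 in VSG compared with Sham-WM (SE 0.18, adjusted p = 0.195). Without 11F the latter was -0.49 and was called (adjusted p = 0.0391), and without 1F it was -0.19. In VSG compared with Sham-Ad lib it was 0.09 (SE 0.18, adjusted p = 0.785), and -0.10 without 11F. Leaving out 4F or 6F made it 0.04, 10F 0.14 and 1F 0.22.

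Mlx (ENSMUSG00000017801, chromosome 11, 101087277 to 101092207), the partner with which ChREBP binds DNA, had 22.8, 24.1, 23.0 and 24.2 CPM in Sham-Ad lib, 37.2, 26.5, 33.3 and 37.3 CPM in Sham-WM and 24.5, 19.7, 30.9 and 24.6 CPM in VSG. Sham-Ad lib values were tight, and every Sham-WM library lay above them. VSG spread around Sham-Ad lib and reached into Sham-WM through 11F. Mlx rose with food restriction from 23.5 ± 0.693 to 33.6 ± 5.08 CPM (log2 fold change 0.51, SE 0.14, adjusted p = 0.0430) and was lower after VSG, at 24.9 ± 4.58 CPM, than in Sham-WM (log2 fold change -0.43, SE 0.14, adjusted p = 0.0365). VSG differed from Sham-Ad lib by 0.08 on the log2 scale (SE 0.14, adjusted p = 0.750), by -0.05 without 11F and by 0.15 without 8F.

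Both calls of Mlx were lost in several fits. Where the call of Sham-WM against Sham-Ad lib was lost, the log2 fold change lay between 0.46 and 0.52, beside 0.51 in the fit of the 12 libraries. Where that of VSG against Sham-WM was lost, it lay between -0.35 and -0.51, beside -0.43. In Sham-WM compared with Sham-Ad lib the adjusted p was 0.102 when 3F was left out, 0.0788 for 4F, 0.1002 for 6F, 0.0849 for 10F, 0.1104 for 2F and 0.0989 for 15F. For 16F it was 0.132, for 1F 0.0538 and for 18F 0.0529, and with no filter on low counts 0.0527. Between VSG and Sham-WM it was 0.0863 when 2F was left out, 0.0719 for 15F, 0.0998 for 16F, 0.0781 for 1F, 0.0626 for 8F and 0.0571 for 18F, and 0.0807 in a fit of these 2 groups alone. With 2 RUVs factors the log2 fold change was -0.51 (adjusted p = 0.171). The ratio of Mlx to Mlxipl in RPKM was 0.403 ± 0.0479 for Sham-Ad lib, 0.442 ± 0.123 for Sham-WM and 0.409 ± 0.0921 for VSG, with overlap.

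Nr1h3 (ENSMUSG00000002108, chromosome 2, 91184061 to 91202834), which encodes the sterol receptor LXR alpha, ran from 84.8 to 95.7 CPM in Sham-Ad lib, from 95.7 to 122 CPM in Sham-WM and from 99.4 to 149.7 CPM in VSG. The 4 VSG libraries lay above the 4 of Sham-Ad lib, with 11F the highest, and Sham-WM touched both. With DESeq2's size factors in place of TMM, or when any 1 library was left out, Sham-WM lay above Sham-Ad lib without overlap. Its mean was 90.1 ± 4.82 CPM in Sham-Ad lib, 104.1 ± 12.3 CPM in Sham-WM and 119 ± 23.4 CPM after VSG. The log2 fold change after VSG was 0.40 against Sham-Ad lib (SE 0.13, adjusted p = 0.107), and 0.26 without 11F (adjusted p = 0.218). It was 0.21 in Sham-WM compared with Sham-Ad lib (SE 0.13, adjusted p = 0.410), 0.12 without 2F (adjusted p = 0.6895), and 0.19 in VSG compared with Sham-WM (SE 0.13, adjusted p = 0.311), the latter 0.06 without 11F (adjusted p = 0.7195) and, with its sign turned, -0.09 with 2 RUVs factors (adjusted p = 0.827).

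Usf1 (ENSMUSG00000026641, chromosome 1, 171411313 to 171419142), a factor that binds E-boxes, had 18.0, 18.9, 17.6 and 21.0 CPM in Sham-Ad lib, 16.0, 19.8, 16.4 and 14.9 CPM in Sham-WM and 26.1, 20.9, 36.5 and 19.9 CPM in VSG. VSG exceeded every Sham-WM library by a narrow margin at 18F, and 11F was far above the rest. With DESeq2's size factors in place of TMM, or when 11F, 8F or 10F was left out, the groups overlapped. Usf1 was higher in VSG than in Sham-WM, with 25.9 ± 7.61 against 16.8 ± 2.11 CPM (log2 fold change 0.62, SE 0.17, adjusted p = 0.0193). It was 0.42 without 11F (adjusted p = 0.0378), and was no longer called without 15F (adjusted p = 0.0515) or 16F (adjusted p = 0.0608), nor with 2 RUVs factors (0.23, adjusted p = 0.422). Against Sham-Ad lib (18.9 ± 1.54 CPM) the log2 fold change was 0.45 in VSG (SE 0.17, adjusted p = 0.139), 0.23 without 11F (adjusted p = 0.335), and -0.17 in Sham-WM (SE 0.17, adjusted p = 0.628), -0.26 without 9F. Usf1 shares 200 exon bases on the same strand with Tstd1, so reads there could have been assigned to either gene or dropped.

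Thrsp (ENSMUSG00000035686, chromosome 7, 97412938 to 97417730), also called Spot 14, had 306, 321.5, 473 and 496 CPM in Sham-Ad lib, 1431, 751, 835 and 687 CPM in Sham-WM and 119, 142, 503 and 206.5 CPM in VSG. The 4 Sham-WM libraries were the 4 highest of the 12, and 2F stood far above the other 3. Among VSG libraries 11F lay narrowly above every Sham-Ad lib library and the other 3 lay below every one. Thrsp was lower in VSG than in Sham-WM, at 243 ± 177 against 926 ± 342 CPM (log2 fold change -1.93, SE 0.41, adjusted p = 0.00544), and without 11F it was -2.57 (adjusted p = 0.000450). Compared with Sham-Ad lib (399 ± 99.3 CPM) it was 1.21 in Sham-WM (SE 0.40, adjusted p = 0.0886), and 1.20 without 11F, when it was called (adjusted p = 0.0138). Calls were also made with no filter on low counts (0.0474), in a fit of the 2 groups (0.0157) and with 2 RUVs (0.00651) or RUVr (0.00506) factors. In VSG it was -0.72 (SE 0.40, adjusted p = 0.284), and -1.37 without 11F (adjusted p = 0.0535).

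Mid1ip1 (ENSMUSG00000008035, X chromosome, 10715013 to 10719690), whose protein resembles that of Thrsp and activates acetyl-CoA carboxylase, had 41.5, 42.45, 47.2 and 51.3 CPM in Sham-Ad lib. It had 82.8, 93.9, 81.7 and 50.8 CPM in Sham-WM and 36.7, 40.5, 39.9 and 26.5 CPM in VSG. VSG lay below both other groups without overlap, narrowly against Sham-Ad lib, and the Sham-WM library 16F stood within the range of Sham-Ad lib. With upper quartile factors in place of TMM, VSG and Sham-Ad lib overlapped. Mid1ip1 was lower in VSG than in Sham-WM, with 35.9 ± 6.48 against 77.3 ± 18.5 CPM (log2 fold change -1.11, SE 0.18, adjusted p = 0.00161). It rose with food restriction from 45.6 ± 4.54 CPM (log2 fold change 0.76, SE 0.18, adjusted p = 0.0219). This call was lost without 3F (adjusted p = 0.0658), 4F (0.0569), 6F (0.0522), 2F (0.0579), 9F (0.0560) or 15F (0.0677). The log2 fold change in these fits lay between 0.66 and 0.78. In VSG compared with Sham-Ad lib the log2 fold change was -0.35 (SE 0.18, adjusted p = 0.254), and -0.23 without 18F (adjusted p = 0.409).

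Over 20 other fits with the same grouping (8 other settings and 12 fits that each left out 1 library), adjusted p between VSG and Sham-WM ran from 3.93e-06 to 0.0645 for Srebf1, 6.20e-05 to 0.0157 for Thrsp, 3.05e-07 to 0.0108 for Mid1ip1 and 1.54e-07 to 0.0208 for Insig1. It ran from 1.80e-08 to 0.0656 for Insig2, 0.00984 to 0.171 for Mlx, 0.000410 to 0.422 for Usf1 and 0.0391 to 0.594 for Mlxipl. Thrsp, Mid1ip1 and Insig1 were thus called in 20 of these 20 fits, Srebf1 and Insig2 in 19, Usf1 in 17, Mlx in 12 and Mlxipl in 1. Between Sham-WM and Sham-Ad lib the adjusted p ran from 1.47e-05 to 0.0303 for Insig2, 0.00223 to 0.0677 for Mid1ip1, 0.0106 to 0.132 for Mlx, 0.00506 to 0.231 for Thrsp and 0.0190 to 0.199 for Scap. Insig2 was called there in 20 of 20 fits, Mid1ip1 in 14, Mlx in 10, and Thrsp and Scap in 5 each. Between VSG and Sham-Ad lib the values were 0.00970 to 0.743 for Nr1h3, 0.0153 to 0.536 for Thrsp and 0.00693 to 0.741 for Usf1, with 1 call of 20 for each, and Insig1 was called in 3 of 20.

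In each library the CPM of the 10 genes together was 1663, 1696, 1674 and 1680 in Sham-Ad lib, 3302, 2811, 2758 and 2154 in Sham-WM and 1122, 1174, 1544 and 1178 in VSG. The 3 groups did not overlap in this sum, most of which came from Thrsp, Srebf1 and Insig1. The means of Scap, Nr1h3, Usf1, Mlxipl and Mlx did not follow its order.

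Levels of the 10 were compared with each other per length of merged exon (RPKM, the CPM divided by the length in kilobases). In Sham-Ad lib the order was Thrsp at 182 RPKM, Insig1 at 109.2, Srebf1 at 70.6, Nr1h3 at 35.8, Mlxipl at 29.55, Insig2 at 24.6, Mid1ip1 at 21.4, Scap at 15.7, Mlx at 11.8 and Usf1 at 6.72 RPKM. The ranges over 4 libraries overlapped for 5 of the 9 pairs of neighbours: Thrsp and Insig1, Insig1 and Srebf1, Nr1h3 and Mlxipl, Mlxipl and Insig2, and Insig2 and Mid1ip1. In Sham-WM, Thrsp (423 RPKM), Insig1 (178) and Srebf1 (93.5) kept the first 3 places and Insig2 (64.6) took the fourth, above Nr1h3 at 41.4 RPKM without overlap. Here 4 of the 9 pairs overlapped: Insig1 and Srebf1, Srebf1 and Insig2, Nr1h3 and Mlxipl, and Mlxipl and Mid1ip1. In VSG, Thrsp had 110.8 RPKM and Usf1, the lowest, 9.22 RPKM, and 9 of the 9 pairs overlapped, so no order of neighbours could be read there. Among all genes tested, Thrsp stood at the percentile 98.0, 99.2 and 96.5 of RPKM for Sham-Ad lib, Sham-WM and VSG, and Usf1 at 68.9, 66.6 and 74.7.

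**Figure D3:**
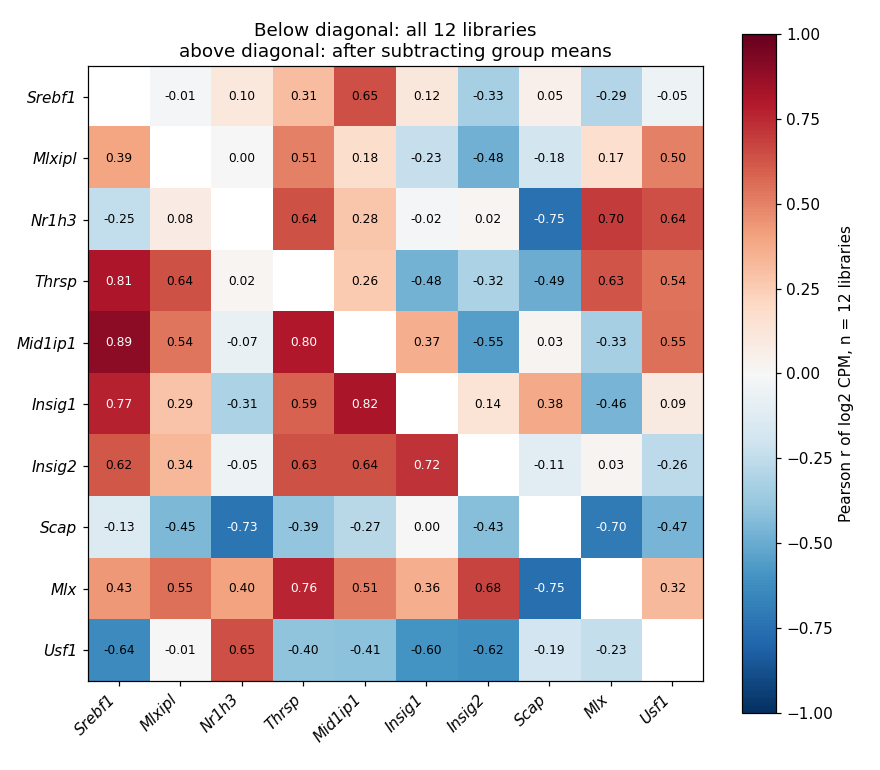
Pearson correlation of log2 CPM for each pair of the 10 regulators, over the 12 libraries (below the diagonal) and after group means were subtracted (above it). Srebf1 and Mid1ip1 had the highest value over the 12 libraries, 0.89.

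The plot of correlations gives Pearson r of log2 CPM for each pair of regulators. The 6 that were lower in VSG than in Sham-WM make 15 pairs, whose r over the 12 libraries lay between 0.36 (Insig1 and Mlx) and 0.89 (Srebf1 and Mid1ip1). These genes were grouped by a difference that they share, which enters r over the 12 libraries. After group means were subtracted, r lay between -0.55 (Mid1ip1 and Insig2) and 0.65 (Srebf1 and Mid1ip1), with 8 pairs above 0 and 7 below. Mid1ip1 and Insig1 had 0.82 over the 12 libraries and 0.37 within groups, Srebf1 and Insig2 0.62 and -0.33, and Thrsp and Insig1 0.59 and -0.48 (n = 12). Of the 45 pairs, 13 had an r over 0.6 over the 12 libraries and 5 within groups, and 3 had both. Nr1h3 and Scap had -0.73 over the 12 libraries and -0.75 within groups, and Scap and Mlx -0.75 and -0.70. Leaving out single libraries, tried after the data had been seen, moved some of the values within groups. Without 11F, that of Nr1h3 and Scap was -0.48. Pairs over 0.6 within groups that then fell below it were Nr1h3 with Thrsp (0.17), Mlx (0.47) and Usf1 (0.16), and Thrsp with Mlx (0.30). The value of Mid1ip1 and Usf1 rose above 0.6, to 0.64. Without 16F, that of Srebf1 and Mid1ip1 was 0.21, that of Mid1ip1 and Insig1 -0.10 and that of Thrsp and Insig1 -0.74. For Srebf1 and Insig2 it was -0.59 without 10F and -0.19 without 8F.

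By the same measure, the tested genes most like Srebf1 over the 12 libraries were Slc25a44 (r = 0.92, and 0.68 within groups), Klk1b4 (0.90 and 0.70) and Fasn (0.90 and 0.56). For Mlxipl they were Cish (0.93 and 0.91), Zfp939 (0.90 and 0.90) and Gbp11 (0.90 and 0.96). Those most like Thrsp were Gsta3 (0.95 and 0.80), Ptcd3 (0.945 and 0.86) and Chtop (0.94 and 0.92). Slc25a15 (0.95 and 0.88), Slc45a3 (0.95 and 0.76) and Tubb2a (0.95 and 0.72) were most like Insig2. These genes were picked as the highest of the 13054 tested, so their r is a description.

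**Figure D4:**
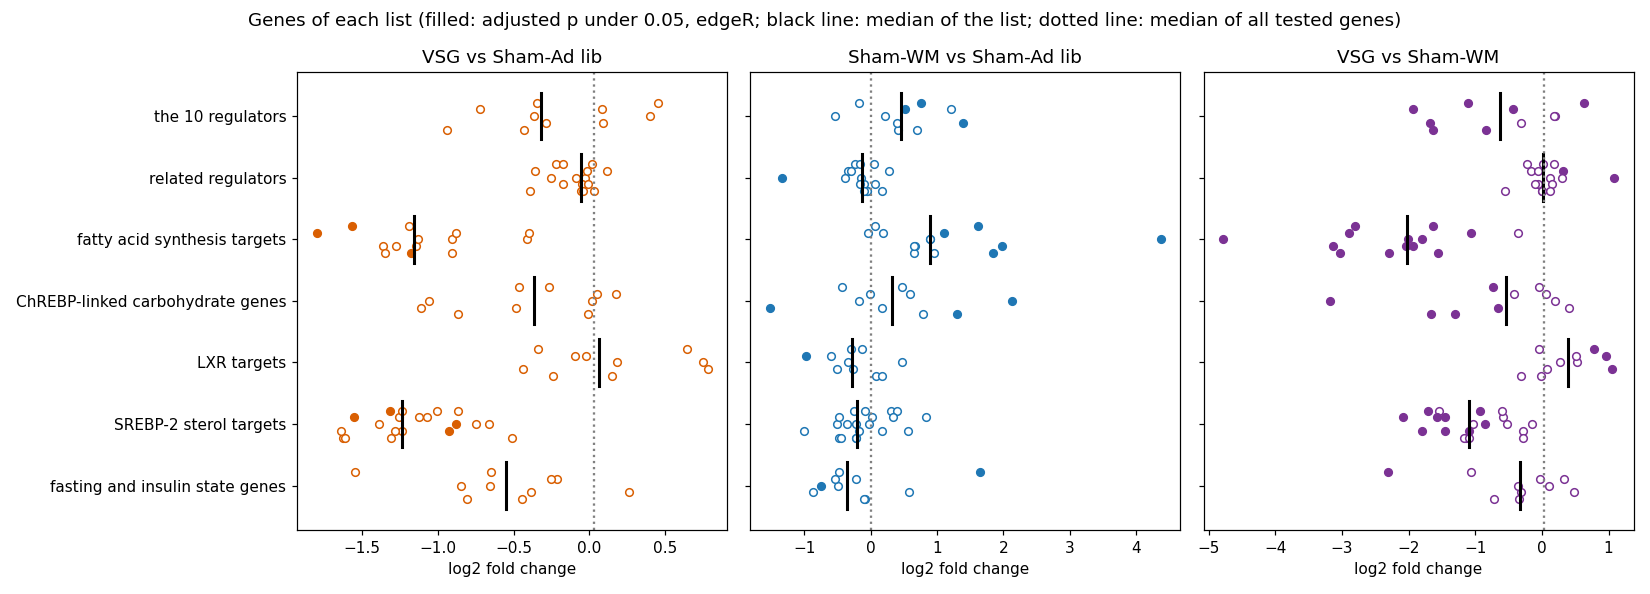
Log2 fold changes of the genes of 6 lists and of the 10 regulators in the 3 comparisons, each point a gene, filled where called, each black line the median of a list and the dotted line that of all genes tested. The 14 fatty acid synthesis targets had a median of -2.03 in VSG compared with Sham-WM.

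Other genes of the same pathways were taken from 6 lists, which the plot of list fold changes shows. How their counts move in other fits, DESeq2 apart, was looked at after the data had been seen. Of all genes tested, edgeR called 0.467% higher and 0.283% lower in VSG than in Sham-Ad lib. It called 3.53% higher and 3.45% lower in Sham-WM than in Sham-Ad lib. In VSG compared with Sham-WM it called 15.0% higher and 11.9% lower. The counts of these lists and of the marker lists below are to be read beside these shares. Of 16 related regulators, 0 were called by edgeR between VSG and Sham-Ad lib (1 at an unadjusted p, 0 by DESeq2, and 1 without 8F), 1 was lower in Sham-WM than in Sham-Ad lib (3 were called without 11F), and 2 were higher in VSG than in Sham-WM. Their median log2 fold changes were -0.05, -0.13 and 0.01. Ppargc1b, a coactivator of SREBP-1 and LXR, had 6.92 ± 1.21, 2.75 ± 0.679 and 5.80 ± 1.60 CPM in the Sham-Ad lib, Sham-WM and VSG groups. It was the gene that fell in Sham-WM (log2 fold change -1.33, SE 0.25, adjusted p = 0.00701), and it was higher in VSG than in Sham-WM (1.08, SE 0.25, adjusted p = 0.00769), opposite in sign to Srebf1. Nr1h2, which encodes LXR beta, was higher in VSG than in Sham-WM too (0.32, SE 0.11, adjusted p = 0.0412). That call was lost without 6F, 10F, 2F, 9F, 15F, 16F, 1F, 8F or 18F (adjusted p from 0.0562 to 0.116), and with DESeq2's size factors (0.0547). Srebf2 had 55.4 ± 11.2, 62.2 ± 5.601 and 42.2 ± 11.6 CPM, and its log2 fold change in VSG compared with Sham-WM was -0.56 (SE 0.20, adjusted p = 0.0531). Erlin1, part of a complex that holds SREBP through Insig, had 0.30 in the same comparison (SE 0.11, adjusted p = 0.0678).

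Among 14 targets of SREBP-1 in fatty acid synthesis, 13 were called lower in VSG than in Sham-WM, 6 were called higher in Sham-WM than in Sham-Ad lib and 3 lower in VSG than in Sham-Ad lib (Acly, Acacb and Fads2), where DESeq2 called 13. Those 3 became 0 without 3F, 6F, 2F, 9F or 1F, in a fit of the 2 groups or with at least 10 counts in every library, and 1 without 10F or 16F or with 2 RUVs factors. They became 9 without 4F, 6 without 8F and 11 without 18F. With RUVs factors the 13 lower than in Sham-WM became 8. Median log2 fold changes were -2.03, 0.89 and -1.16, further from 0 than the medians of the 10 regulators, -0.63, 0.46 and -0.32. The 4 with the smallest p between VSG and Sham-WM were Acly (log2 fold change -3.03, SE 0.19, adjusted p = 3.70e-06), Acacb (-2.90, SE 0.25, adjusted p = 3.15e-05), Elovl6 (-3.13, SE 0.30, adjusted p = 5.85e-05) and Fasn (-2.81, SE 0.27, adjusted p = 6.14e-05). These targets had been singled out in these libraries before, so their direction adds no independent support.

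Of 10 carbohydrate genes linked to ChREBP, 5 were lower in VSG than in Sham-WM, 2 were higher and 1 lower in Sham-WM than in Sham-Ad lib, and 0 were called by edgeR between VSG and Sham-Ad lib, where DESeq2 called 2 and 5 passed an unadjusted p. The 5 became 0 with 2 RUVs factors and 3 without 15F or 16F, and the 0 became 2 without 4F and 1 without 18F. G6pc, the catalytic part of glucose-6-phosphatase, had 127 ± 28.4, 553 ± 319 and 60.9 ± 34.4 CPM in the Sham-Ad lib, Sham-WM and VSG groups. It was higher in Sham-WM than in Sham-Ad lib (log2 fold change 2.13, SE 0.47, adjusted p = 0.0170, but 0.0543 without 10F and 0.0599 without 16F) and lower in VSG than in Sham-WM (-3.18, SE 0.49, adjusted p = 0.00126). Tkfc, an enzyme of fructose metabolism, had 330.1 ± 87.5, 809.8 ± 264.7 and 327 ± 50.7 CPM and was also lower in VSG than in Sham-WM (-1.31, SE 0.23, adjusted p = 0.00233), with -0.01 between VSG and Sham-Ad lib (SE 0.23, adjusted p = 0.978). Pklr, the liver pyruvate kinase, had -1.66 (SE 0.29, adjusted p = 0.00217) between VSG and Sham-WM. Txnip, named after its values were seen, was the gene of the list that was lower in Sham-WM than in Sham-Ad lib (-1.52, adjusted p = 0.00347).

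Among 10 LXR targets, 3 were higher in VSG than in Sham-WM, 1 was lower in Sham-WM than in Sham-Ad lib and 0 were called by edgeR between VSG and Sham-Ad lib (4 at an unadjusted p, 0 by DESeq2, and 1 without 4F). The 3 became 0 with 2 RUVs factors, and without 15F or 16F the 1, Abcg8, was not called (adjusted p = 0.0527 and 0.0547). The sterol exporter gene Abcg8 had 160.0 ± 14.0, 81.3 ± 27.0 and 157.5 ± 34.7 CPM in the Sham-Ad lib, Sham-WM and VSG groups (Sham-WM compared with Sham-Ad lib -0.98, SE 0.21, adjusted p = 0.0140, and VSG compared with Sham-WM 0.96, SE 0.21, adjusted p = 0.00621). Abcg1 (1.04, SE 0.26, adjusted p = 0.0129) and Arl4c (0.78, SE 0.20, adjusted p = 0.0143) were also higher in VSG than in Sham-WM, and Abcg5 had 0.53 (SE 0.22, adjusted p = 0.0944).

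Of 20 sterol genes that SREBP-2 controls, 10 were lower in VSG than in Sham-WM and 4 were lower in VSG than in Sham-Ad lib, where DESeq2 called 13. Those 4 became 0 without 6F, 10F, 2F, 9F, 15F, 16F or 1F, in a fit of the 2 groups, with at least 10 counts in every library or with 2 RUVs factors. They became 1 without 3F, 2 without 11F and 9 without 4F, and with RUVs factors the 10 became 4. Of the 20, edgeR and DESeq2 called 0 between Sham-WM and Sham-Ad lib, 2 passed an unadjusted p, and 1 was called without 3F. Median log2 fold changes were -1.10, -1.24 and -0.20. Hsd17b7 had 80.2 ± 36.5, 81.65 ± 8.37 and 27.3 ± 3.82 CPM in the Sham-Ad lib, Sham-WM and VSG groups, and was lower in VSG than in Sham-WM (log2 fold change -1.58, SE 0.24, adjusted p = 0.00112, and 0.0889 with 2 RUVs factors). Against Sham-Ad lib it had -1.55 (SE 0.24, adjusted p = 0.0410), a call lost without 6F, 10F, 2F, 9F, 15F, 16F or 1F (adjusted p from 0.0518 to 0.0956). It was also lost in a fit of the 2 groups (0.1196), with at least 10 counts in every library (0.0530) and with RUVs factors (0.326). Between VSG and Sham-WM, Pmvk had -2.08 (SE 0.32, adjusted p = 0.00122), Sc5d -1.10 (SE 0.17, adjusted p = 0.00127) and Lss -1.71 (SE 0.27, adjusted p = 0.00140).

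Of 10 genes that follow fasting and insulin, 1 was higher and 1 lower in Sham-WM than in Sham-Ad lib, 1 was lower in VSG than in Sham-WM and 0 were called by edgeR between VSG and Sham-Ad lib, where DESeq2 called 3, 4 passed an unadjusted p and 1 was called without 4F or 8F. DESeq2 called 2 between VSG and Sham-WM, and edgeR 2 without 15F, 16F, 8F or 18F. In Sham-WM compared with Sham-Ad lib 8 of the 10 had a fold change below 0, with a median of -0.35. Cpt1a, the gene of fatty acid entry into mitochondria that fasting is known to raise, was the one called lower there (-0.75, SE 0.17, adjusted p = 0.0205), and it was named after its values were seen. Its call was lost without 3F (adjusted p = 0.0581), 6F (0.0576), 15F (0.07615) or 16F (0.0757). Angptl4 had -0.87 (SE 0.28, adjusted p = 0.0776). Pdk4, a kinase raised in fasting that spares glucose, had 3.59 ± 0.782, 11.3 ± 3.04 and 2.29 ± 0.566 CPM in the Sham-Ad lib, Sham-WM and VSG groups. It rose with food restriction (log2 fold change 1.66, SE 0.24, adjusted p = 0.00181) and was lower in VSG than in Sham-WM (-2.30, SE 0.25, adjusted p = 0.000148). Between VSG and Sham-WM, Fgf21 had -1.07 (SE 0.47, adjusted p = 0.107) and Angptl4 0.48 (SE 0.27, adjusted p = 0.208). Whether the feeding state of the mice had a part in the values of the regulators was not tested.

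**Figure D5:**
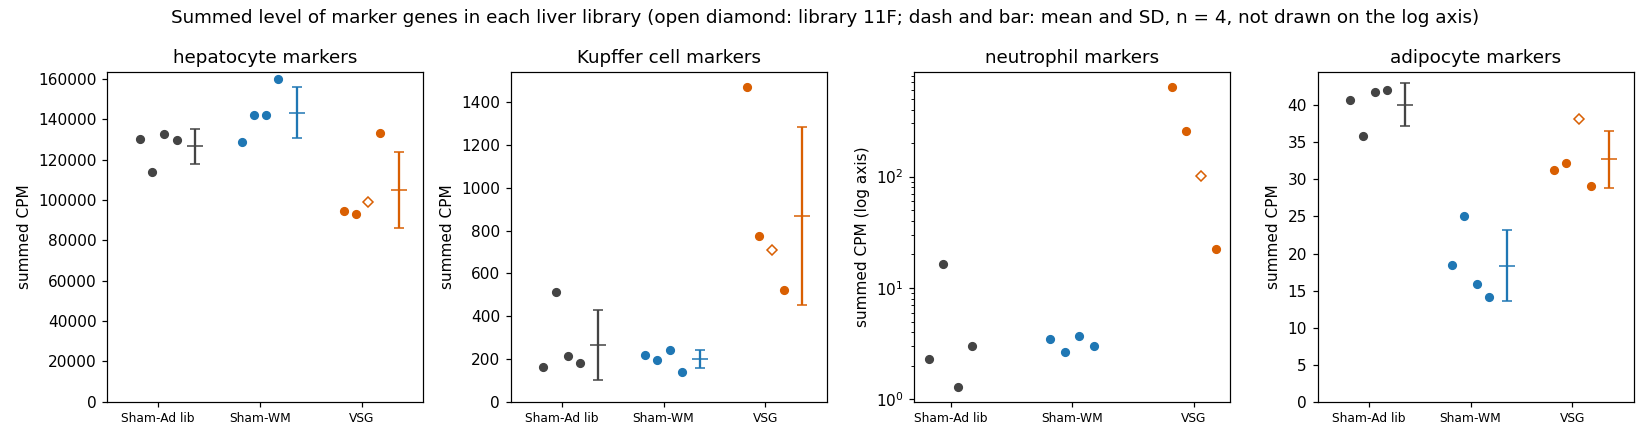
Summed CPM of the marker genes of 4 cell types in every library by group, with an open diamond for 11F, a dash and bar for mean ± SD, and a log axis with no mean for neutrophils. Kupffer cell markers lay between 523 and 1474 CPM in the 4 VSG libraries and between 141 and 511 CPM in the 8 others.

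Marker genes of several cell types differed between groups, as the plot of marker sums shows. In bulk RNA, fewer cells of a type and less RNA per cell cannot be told apart. Of 8 hepatocyte markers 8 were tested, and albumin (Alb) was the most abundant. Their sum was 130400, 113800, 133000 and 129700 CPM in Sham-Ad lib, 128900, 142400, 142100 and 159900 CPM in Sham-WM and 94810, 92950, 98910 and 133300 CPM in VSG. The VSG library 18F stood with the sham libraries, and the other 3 lay below every one of them. Alb alone made up 64000 of the mean of 105000 CPM in VSG. Of the 8, 1 was called higher in VSG than in Sham-WM (Fgb) and 1 lower (Alb), and 4 fold changes were above 0 and 4 below, with a median of 0.02. The call of Alb was lost without 9F, 15F, 16F, 1F, 8F or 11F (adjusted p from 0.0509 to 0.0867), and with 2 RUVs factors neither was called (0.613 for Alb and 0.279 for Fgb).

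Kupffer cells are the resident macrophages of the liver. Their 8 markers, led by Cd5l, summed to 163, 511, 214 and 180.4 CPM in Sham-Ad lib, 219, 194, 243 and 141 CPM in Sham-WM and 1474, 774, 711 and 523 CPM in VSG. Every VSG library lay above every other library, of which 4F was the highest. Of the 8, 8 were called higher in VSG than in Sham-WM and 2 higher than in Sham-Ad lib (Clec4f and Vsig4), where DESeq2 called 7. The 2 became 0 without 3F, 6F, 10F, 2F, 9F, 15F, 16F or 1F, 8 without 4F and 7 without 18F. The 8 became 1 and the 2 became 0 with 2 RUVs factors.

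Neutrophil markers, led by S100a9, summed to 2.29, 16.3, 1.30 and 3.01 CPM in Sham-Ad lib, 3.465, 2.66, 3.72 and 3.04 CPM in Sham-WM and 639, 258, 102 and 22.3 CPM in VSG. VSG was again above every other library, with 1F the highest and 18F the lowest of its 4. Of 7 markers 5 were tested, and 5 were called higher in VSG than in Sham-WM and 3 higher than in Sham-Ad lib (S100a8, S100a9 and Retnlg), where DESeq2 called 5. The 3 became 0 without 3F, 6F, 10F, 2F, 9F, 15F, 16F or 1F and 6 without 4F or 18F, and with 2 RUVs factors the 5 became 2. For the log2 CPM of the 10 regulators beside the Kupffer cell, neutrophil and hepatocyte sums, r over the 12 libraries ran from -0.74 (Usf1 with hepatocytes) to 0.69 (Insig2 with hepatocytes). Within groups it ran from -0.67 (Mid1ip1 with hepatocytes) to 0.56 (Insig1 with Kupffer cells), and its sign differed from that over the 12 libraries in 10 of the 30 pairs (n = 12). The part of these cells in the results for the regulators was not tested.

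Adipocyte markers, led by Lipe, summed to 40.7, 35.8, 41.8 and 42.1 CPM in Sham-Ad lib, 18.45, 25.0, 15.9 and 14.1 CPM in Sham-WM and 31.3, 32.2, 38.1 and 29.1 CPM in VSG. Sham-WM lay below both other groups. Lep was at 0 counts in the 12 libraries, and Adipoq, Plin1 and Retn were at means of at most 0.0188 CPM in each group. The sum therefore came from Lipe, Fabp4 and Cfd. Of 7 markers 3 were tested, of which 2 were lower in Sham-WM (Cfd and Lipe) and 1 lower in VSG (Cfd) than in Sham-Ad lib, and 1 was higher in VSG than in Sham-WM (Lipe). The call of Cfd in VSG was lost without 3F, 6F, 10F, 2F, 9F, 15F, 16F or 1F, and that of Lipe in VSG with 2 RUVs factors (adjusted p = 0.1255). Without 2F, 8F or 18F 2 were called between VSG and Sham-WM. Their part in the results was not tested.

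Few markers of 4 further cell types were called. Those of sinusoidal endothelium, led by Fcgr2b, summed to 167 ± 27.7, 197 ± 36.2 and 171.5 ± 44.0 CPM in the Sham-Ad lib, Sham-WM and VSG groups, and 1 of 7 was lower in VSG than in Sham-WM (Kdr), with 2 called without 2F, 11F or 18F. Stellate cell markers, led by Reln, summed to 185 ± 30.0, 186.5 ± 25.6 and 131 ± 47.9 CPM, with 2 of 7 lower in VSG than in Sham-WM (Lrat and Reln) and 1 higher in Sham-WM than in Sham-Ad lib (Lrat), which was not called without 3F, 4F, 6F, 10F, 15F, 16F or 8F. Calls of Kdr, Lrat and Reln between VSG and Sham-WM were lost with 2 RUVs factors (adjusted p = 0.4865, 0.1151 and 0.167). Bile duct markers, led by Spp1, summed to 47.6 ± 16.6, 40.7 ± 3.10 and 62.25 ± 24.3 CPM, and edgeR called 0 of 5 in the 3 comparisons, where DESeq2 called 2 between VSG and Sham-WM, as edgeR did without 4F, with 1 called without 2F or 18F. Pancreas markers, led by Cela1, summed to between 11.3 and 24.8, 16.2 and 22.8, and 11.8 and 37.1 CPM in the 3 groups, with Cpa1, Pnlip and Amy2b at 0 counts in the 12 libraries and 1 of 6 tested and not called.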

How the data were processed

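The authors made poly(A) RNA of 12 livers into strand-marked libraries, aligned the paired reads to mm10 with TopHat2 2.1.1 and counted them with featureCounts. They deposited whole-number counts per Ensembl gene, without normalization. The annotation release and the strand setting of the counting are not given in the sources used here. Where an antisense gene overlaps an exon, as for Srebf1, Mlxipl, Mlx, Mid1ip1 and Scap, the count may therefore hold reads of both.

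Library totals ran from 15122520 to 19384076 counts. Of 46078 genes, 45229 matched GENCODE M21. Libraries were grouped by the animal number that the library name and the sample title share. Another label field pairs titles with libraries in a different way and was used as an alternative grouping. Separate mice make up the replicates. No replicates were copies of each other: the lowest chi-square per gene between replicates was 16.75.

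R 4.3.3 with edgeR 4.0.16, limma 3.58.1 and DESeq2 1.42.0 was used. Genes were kept by filterByExpr (minimum count 10, minimum total 15), scaled by TMM and fitted as group means over 12 libraries with edgeR's quasi-likelihood test, two-sided, adjusted by the Benjamini-Hochberg method over 13054 genes. Standard errors are the fold change divided by the root of the F statistic. Log2 CPM used a prior count of 2. The code was tested on simulated data.

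The genes named are the 10 regulators, the 4 genes of each of the 6 pathway lists with the smallest p in VSG compared with Sham-WM, the 3 genes most like Srebf1, Mlxipl, Thrsp and Insig2 by Pearson r, and the most abundant gene of each marker list with those at 0. Of the pathway list genes so chosen, 2 are not reported here. Other list genes were named, after their values were seen, where few of a list were called. The members and lists were chosen with earlier results of these data known. Alternatives tried were the DESeq2 Wald test, DESeq2's size factors, upper quartile scaling, 2 other filters, a fit of the 2 groups compared, 2 RUVs or RUVr factors (written out from their definitions), unadjusted p, the other grouping and leaving out each library in turn. For the list counts, all of these but DESeq2's test and the other grouping were added after the data had been seen.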

Additional observations from a re-analysis of the deposited data

Results flagged for a closer look

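In Sham-WM, library 2F had 122.4 CPM of Nr1h3 while 9F, at 95.69 CPM, was the lowest of the other 3. The gap from 2F to the nearest library was 0.839 of the group's range, above the critical value of Dixon's test for 4 values. In all, 30 groups of values were examined (10 genes in 3 groups), and chance alone marks about 1 in 20. Nr1h3 was not called in any comparison by edgeR in the fit of the 12 libraries.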

How the results depend on the processing

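Of the 30 log2 fold changes of the 10 regulators, 30 kept their direction and side of the threshold with DESeq2 size factors, upper quartile factors or at least 10 counts in every library, 28 with DESeq2, 27 without a filter and 27 in a fit of 2 groups. Under 2 RUVs factors 23 did, under 2 RUVr factors 24, and at an unadjusted p 20. Leaving out 1 library gave 360 values, of which 332 did.

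Under the grouping by the other label field 11 of 30 did, and 13 changed sign. For Sham-WM compared with Sham-Ad lib the log2 fold changes were then -0.12 for Insig2, -0.43 for Mlx, -0.36 for Mlxipl, -0.17 for Nr1h3, 0.25 for Scap and -0.58 for Thrsp. For VSG compared with Sham-Ad lib they were 0.039 for Insig1, -0.20 for Mlx, -0.46 for Mlxipl, 0.28 for Scap and -0.15 for Usf1, and for VSG compared with Sham-WM 0.23 for Mlx and 0.29 for Thrsp. This grouping called 0 genes and 0 regulators in each comparison, and 0 genes of every list that had calls. Regulators without overlap numbered 1, 0 and 0 under it, for the comparisons of VSG with Sham-Ad lib, Sham-WM with Sham-Ad lib and VSG with Sham-WM, beside 2.09%, 2.98% and 1.65% of all genes. The labels alone do not settle which field is right. The paper's RT-qPCR, on RNA extracted anew, put Fasn, Scd, Elovl6 and Acly higher in Sham-WM than in VSG mice. Grouping by animal number gives that direction for Fasn, Scd1, Elovl6 and Acly. The paper's log ratios against Sham-Ad lib were -0.9 in VSG and 0.9 in Sham-WM for Acaca, and -1.1 and 0.9 for Scd. Grouping by animal number gave -0.91 and 0.89 for Acaca, and -1.13 and 0.89 for Scd1.

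With 2 RUVs factors Nr1h3 had -0.0875 in VSG compared with Sham-WM. Without 1 library, the log2 fold changes in VSG compared with Sham-Ad lib ran from -0.0487 to 0.145 for Mlx and from -0.10 to 0.22 for Mlxipl. The cause was not tested.

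The 98 genes called between VSG and Sham-Ad lib became 1202 with DESeq2, 628 without a filter, 0 with at least 10 counts in every library, 0 in a fit of 2 groups, 6 with RUVs, 3016 with RUVr, 3149 unadjusted and 0 to 1089 without 1 library. The 912 between Sham-WM and Sham-Ad lib became 1445 with DESeq2, 1399 in a fit of 2 groups, 1723 with RUVs, 2193 with RUVr, 2814 unadjusted and 424 to 1311 without 1 library. The 3509 between VSG and Sham-WM became 518 with RUVs, 5491 with RUVr, 5268 unadjusted and 2196 to 3868 without 1 library. The cause was not tested.

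Regulators called between VSG and Sham-Ad lib numbered 1 with DESeq2 (beside 9.21% of all genes), 1 without a filter (2.72%), 4 with RUVr (23.1%), 5 unadjusted (24.1%) and 0 without any 1 library. Between Sham-WM and Sham-Ad lib there were 5 in a fit of 2 groups (11.1%), 5 with RUVs (13.2%), 5 with RUVr (16.8%), 8 unadjusted (21.6%) and 1 to 5 without 1 library (3.19% to 9.89%). Between VSG and Sham-WM there were 3 with RUVs (3.97%) and 5 to 8 without 1 library (16.5% to 29.1%). Regulators without overlap between VSG and Sham-Ad lib numbered 1 with upper quartile factors (beside 9.31% of all genes) and 2 to 4 without 1 library (9.15% to 19.43%), and between Sham-WM and Sham-Ad lib 5 to 8 without 1 library (17.2% to 24.2%). The cause was not tested.

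With DESeq2, the list counts that moved by over 1.5 times were, between VSG and Sham-Ad lib, 13 of the fatty acid synthesis targets, 2 of the ChREBP-linked genes, 13 of the SREBP-2 targets, 3 of the fasting genes, 7 Kupffer cell, 5 neutrophil and 1 stellate cell markers. Between Sham-WM and Sham-Ad lib they were 3 related regulators and 1 hepatocyte marker, and between VSG and Sham-WM 2 fasting genes, 2 adipocyte and 2 bile duct markers. The cause was not tested.

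The list counts were taken in the fits other than DESeq2 and the other grouping after the data had been seen, and those that moved by over 1.5 times follow. With DESeq2 size factors there were 1 ChREBP-linked gene between VSG and Sham-Ad lib, and 1 related regulator and 2 fasting genes between VSG and Sham-WM. Upper quartile factors moved 0 of them. Without a filter, those between VSG and Sham-Ad lib were 12 fatty acid, 1 ChREBP-linked, 13 SREBP-2, 2 fasting, 7 Kupffer cell, 7 neutrophil and 1 stellate cell genes. There were 2 fasting genes and 1 hepatocyte marker between VSG and Sham-WM. With at least 10 counts in every library, and in a fit of 2 groups, the fatty acid, SREBP-2, adipocyte, Kupffer cell and neutrophil counts between VSG and Sham-Ad lib were 0. The former also left 1 adipocyte marker between Sham-WM and Sham-Ad lib and 1 neutrophil marker between VSG and Sham-WM. The latter gave 2 related regulators between Sham-WM and Sham-Ad lib, and 1 with 1 hepatocyte marker between VSG and Sham-WM.

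With RUVs, counts between VSG and Sham-Ad lib were 1 fatty acid target and 0 SREBP-2, adipocyte and Kupffer cell genes, and between Sham-WM and Sham-Ad lib 2 related regulators, 5 ChREBP-linked genes and 2 LXR targets. For VSG and Sham-WM they were 8 fatty acid, 4 SREBP-2, 2 neutrophil, 1 Kupffer cell and 1 related regulator genes, and 0 ChREBP-linked, LXR, hepatocyte, adipocyte, endothelial and stellate cell genes. With RUVr, counts between VSG and Sham-Ad lib were 2 related regulators, 13 fatty acid, 3 ChREBP-linked, 4 LXR, 14 SREBP-2, 4 fasting, 2 hepatocyte, 8 Kupffer cell, 5 neutrophil and 2 stellate cell genes. Between Sham-WM and Sham-Ad lib they were 3 related regulators, 7 ChREBP-linked, 2 LXR, 1 hepatocyte and 2 Kupffer cell genes, and between VSG and Sham-WM 4 related regulators, 5 hepatocyte and 2 bile duct markers. Unadjusted counts between VSG and Sham-Ad lib were 1 related regulator, 13 fatty acid, 5 ChREBP-linked, 4 LXR, 17 SREBP-2, 4 fasting, 2 hepatocyte, 8 Kupffer cell, 5 neutrophil and 2 stellate cell genes. For the 2 sham groups they were 5 related regulators, 10 fatty acid, 7 ChREBP-linked, 2 SREBP-2, 1 hepatocyte and 1 endothelial genes. For VSG and Sham-WM they were 4 related regulators, 5 LXR, 3 fasting, 2 adipocyte, 2 endothelial and 2 bile duct genes.

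Without 1 library, counts between VSG and Sham-Ad lib ran from 0 to 11 for fatty acid, 9 for SREBP-2, 8 for Kupffer cell, 6 for neutrophil and 2 for ChREBP-linked genes, and from 0 to 1 for related regulators, LXR, fasting, adipocyte and stellate cell genes. For the 2 sham groups they ran from 1 to 3 for related regulators and fasting genes, and from 0 to 1 for LXR, SREBP-2 and stellate cell genes. For VSG and Sham-WM they ran from 3 to 5 for ChREBP-linked genes, 0 to 2 for bile duct markers, and 1 to 2 for related regulators, fasting, hepatocyte, adipocyte and endothelial genes. The cause was not tested.

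No paired analysis was possible because the groups share no animal numbers.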
